A study of Mus musculus with 20 samples.

Results

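Livers of mice given glucagon together with T3 were compared with livers of mice given glucagon alone, to ask what T3 adds when glucagon is already present. Glucagon is the pancreatic hormone of fasting, and T3 (triiodothyronine) is the active thyroid hormone. All mice were males on a western diet, and treatment was given daily for 16 days. The comparison took every library labelled Gluc+T3, called combination here, and every library labelled Gluc, called glucagon here. These were 8 of the 20 libraries of the series, 4 a group, each from the liver of 1 mouse. Libraries of 4 control mice and of 4 mice given T3 alone serve as a second background, and a further group coded Cp entered only the shared estimate of the spread. Doses and the hour at which tissue was taken were not given in the sources used here. Of the 13319 gene symbols counted, 12907 were tested.

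The glucagon libraries held 11988039 to 19931718 counts and the combination libraries 9858877 to 14897657. Replicates 1 to 4 of both groups ran in sequencing lanes 1 to 4, so every library has a partner from its own lane. The biological coefficient of variation between livers was 26.1% for glucagon and 18.9% for combination, against 43.2% for control and 19.2% for T3. The 21 hepatocyte markers, such as albumin and the fibrinogen chains, held 19.2% to 24.8% of all counts in glucagon and 16.6% to 20.9% in combination. None was at 0 in any of the 8 libraries. Sums over cell markers are scaled by library totals alone, without the factors used for single genes. Glucagon 3 summed to 3549 CPM (counts scaled to a common library size) over 24 skeletal muscle genes, against 36.4 to 89.3 CPM in the other glucagon libraries. Combination 4 summed to 440.4 CPM over these genes, against 27.7 to 36.6 CPM in its group, and control 2 to 1198 CPM. Control 2 also stood above the other controls in genes induced by interferon, with a mean over the list of 6.18 log2 CPM against 2.92 to 3.11.

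In hepatocytes glucagon binds its receptor, a G protein-coupled receptor that raises cyclic AMP. Protein kinase A then phosphorylates the transcription factor CREB, and genes with cyclic AMP response elements respond within a short time. These include the NR4A nuclear receptors, the coactivator gene Ppargc1a and the gluconeogenic gene Pck1. T3 enters hepatocytes through membrane carriers and acts through nuclear receptors, of which the product of Thrb is the main one in liver, and it is known for its effects on cholesterol, bile acid, fatty acid and energy metabolism.

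Known CREB targets and early response genes were among those that fell on adding T3 to glucagon. The sequences just before the start of 7 genes that fell are therefore shown, 5′ to 3′ on the gene's strand, from RefSeq on GRCm38.p6. Capitals mark the core half-site of the cyclic AMP response element (TGACG, or CGTCA for the other strand) and, where both overlap, the full palindrome (TGACGTCA). Each was cut from the 250 bases before a listed start, without bases that GENCODE M21 places in an exon. Those of Nr4a1, Slc25a25 and Maff lie inside the GENCODE span of the gene, at an internal start, and the others just before it. The 7 genes were chosen from the named genes that fell, by no set rule. Slc25a25 and Maff have 3 listed starts each, and the window that holds the full palindrome was chosen. Neither of the other Slc25a25 windows nor the first of Maff holds a half-site, and the third of Maff holds 1. The shares per window that follow are therefore no baseline for these genes. Among all 32851 such windows in the table, 17.8% held a half-site and 1.55% the full palindrome. Per gene, over all its listed starts, both shares were higher among the tested genes that matched the table.
Nr4a1, chr15:101266596-101266845, + strand: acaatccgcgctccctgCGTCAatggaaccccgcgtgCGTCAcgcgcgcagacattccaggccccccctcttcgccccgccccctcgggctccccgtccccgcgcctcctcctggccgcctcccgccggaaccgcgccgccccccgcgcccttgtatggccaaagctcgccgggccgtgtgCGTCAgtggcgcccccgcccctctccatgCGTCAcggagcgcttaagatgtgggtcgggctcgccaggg
Nr4a2, chr2:57124004-57124253, - strand: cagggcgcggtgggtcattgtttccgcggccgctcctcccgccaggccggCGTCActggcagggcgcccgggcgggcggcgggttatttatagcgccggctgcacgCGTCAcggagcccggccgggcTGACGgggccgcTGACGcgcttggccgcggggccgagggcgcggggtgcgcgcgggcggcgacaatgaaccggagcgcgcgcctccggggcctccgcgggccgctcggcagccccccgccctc
Nr4a3, chr4:48045055-48045152, + strand: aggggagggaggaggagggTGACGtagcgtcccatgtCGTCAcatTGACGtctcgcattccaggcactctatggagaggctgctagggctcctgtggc
Ppargc1a, chr5:51567727-51567975, - strand: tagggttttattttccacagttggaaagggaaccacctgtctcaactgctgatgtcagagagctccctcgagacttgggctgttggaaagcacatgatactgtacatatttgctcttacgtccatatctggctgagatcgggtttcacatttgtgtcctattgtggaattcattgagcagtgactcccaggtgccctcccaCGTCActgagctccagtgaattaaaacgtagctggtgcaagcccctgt
Pck1, chr2:173152823-173153047, + strand: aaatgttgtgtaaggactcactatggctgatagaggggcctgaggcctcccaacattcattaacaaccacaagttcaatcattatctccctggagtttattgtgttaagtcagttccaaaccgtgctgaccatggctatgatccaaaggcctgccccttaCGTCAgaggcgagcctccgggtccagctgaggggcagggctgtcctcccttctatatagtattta
Slc25a25, chr2:32424067-32424316, - strand: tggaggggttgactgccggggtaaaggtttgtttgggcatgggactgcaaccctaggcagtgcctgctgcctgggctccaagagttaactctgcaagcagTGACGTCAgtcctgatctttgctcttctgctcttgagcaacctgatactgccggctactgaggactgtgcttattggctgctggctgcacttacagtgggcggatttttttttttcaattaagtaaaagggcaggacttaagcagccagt
Maff, chr15:79347270-79347519, + strand: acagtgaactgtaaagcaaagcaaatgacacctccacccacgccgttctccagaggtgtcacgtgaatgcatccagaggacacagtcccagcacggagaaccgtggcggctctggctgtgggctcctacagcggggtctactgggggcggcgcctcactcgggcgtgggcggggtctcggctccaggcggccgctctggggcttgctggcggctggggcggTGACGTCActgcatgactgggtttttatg

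The shown sequences of Nr4a1 and Nr4a2 hold 4 half-sites each and that of Nr4a3 holds 3. Those of Ppargc1a and Pck1 hold 1 half-site each, and those of Slc25a25 and Maff the full palindrome. These matches describe the letters only. No share is given for the gene lists, because fewer than 80% of the genes tested (79.1%) and of the 23 listed CREB targets (73.9%) matched the table.

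Adding T3 changed the level of 2906 of 12907 genes, 22.5%, at an adjusted p under 0.05 (quasi-likelihood test of edgeR, with p-values adjusted by Benjamini-Hochberg across the genes tested). Such genes are called below, and changes are log2 differences ± SE, combination minus glucagon, from 4 and 4 livers. Of the called genes, 1595 (12.4% of those tested) rose and 1311 (10.2%) fell, and 1494 changed by more than 1 on the log2 scale. Every count for a gene list below is to be read beside these shares of all genes, 12.4% and 10.2%. Within lanes, 1565 of the genes that rose and 1288 of those that fell moved in the same direction in all 4 pairs of livers. These genes were called from the same libraries, so this agreement follows largely from their selection. The livers of a pair share a lane and are not otherwise matched by the labels. The median change over all genes was near 0 (log2 -0.0048). Groups did not overlap in 33.2% of all genes tested. The 12 highest and 12 lowest changes named below were picked among called genes of at least 20 CPM without overlap. The separation of these genes follows from that rule. The highest were Cyp3a16, Cyp3a44, Cux2, Arrdc3, Ugt2b37, Cyp7a1, Cyp4a31, Cyp17a1, Osgin1, Rgs16, Stat5a and Cyp4a14. The lowest were Tas1r2, Nr4a3, Btbd19, Hsd17b6, Klf4, Nr4a1, Ppp1r3g, Elovl3, Nr4a2, Cabyr, Maff and Mfsd2a.

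The split between rising and falling genes rests on the scaling. With trimmed-mean (TMM) factors 54.9% of called genes rose. With library totals alone 3907 genes were called, 82.8% of them higher, and all genes shifted up by a median of 0.31 log2. The 10 most abundant genes held 26.4% to 31.0% of the counts in glucagon libraries and 19.0% to 25.8% in combination libraries, with Alb the largest in each. Directions below are relative to the bulk of genes, and a list's count with library totals is given where it differs by over 1.5 times. A fit of the 8 compared libraries alone called 4177 genes, and its count for a list is given by the same measure. The exons of 25 of the 125 named genes with a known position overlap an exon of another gene, so that part of their reads may belong to that gene. Among them are Acsl1, Dnajb9, Eif2ak3, Elovl3, Ephx1, Etfb, Folr2, Fst, Gclm, Keg1, Lss, Mt2, Nags, Parp14, Ppp1r15a, Rgs16, Slc25a25, Slc7a2, Stat5a, Tas1r2, Tbx3, Thra and Txnip.

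**Figure D1:**
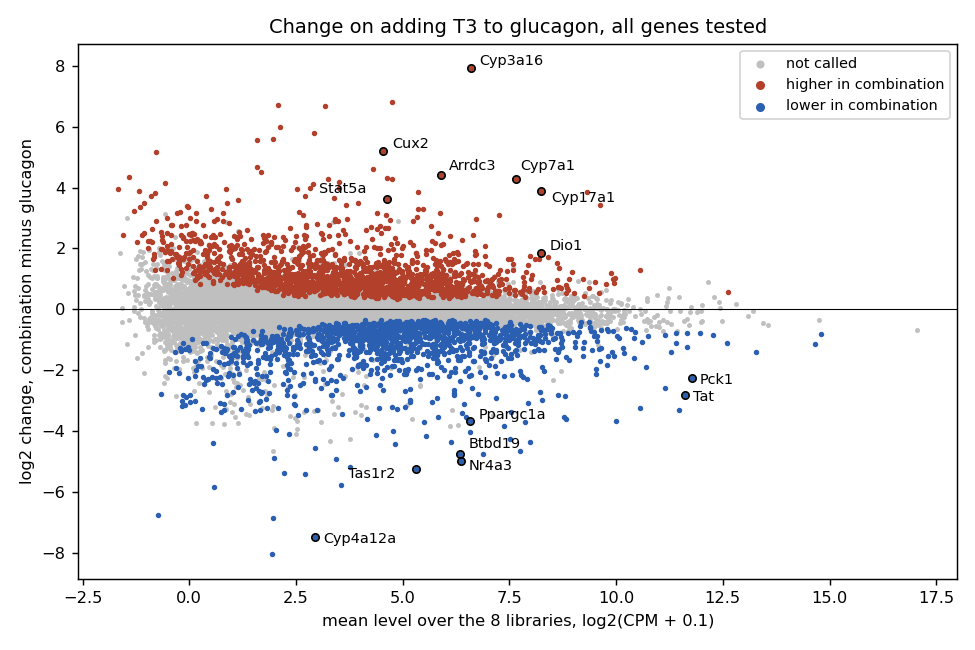
Log2 change on adding T3 to glucagon (vertical axis) against the mean level over the 8 libraries (horizontal axis, log2 of CPM + 0.1), 1 point a gene. The 1595 genes called higher and 1311 called lower lie between log2 changes of -8.04 (Lcn13) and 7.91 (Cyp3a16), and open circles mark genes described in the text.

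Genes of the cyclic AMP response fell. Nr4a3, an orphan nuclear receptor gene at chr4:48045153-48086447, + strand (GRCm38), stood at 135, 193, 169.7 and 137 CPM in glucagon replicates 1 to 4 and at 7.94, 5.66, 1.89 and 4.55 CPM in combination. Every glucagon liver was above every combination liver, and control livers held 0.214 to 0.628 CPM. The change was -4.97 ± 0.35 (edgeR adjusted p = 6.75e-09). Nr4a1, at chr15:101254269-101274795, + strand, stood at 199.6, 153, 107 and 73.5 CPM in glucagon and 7.40, 8.14, 4.19 and 6.12 CPM in combination. The 4 combination livers lay below the lowest control liver (9.88 to 21.7 CPM in control), and the change was -4.36 ± 0.38 (edgeR adjusted p = 1.12e-07). Nr4a2, the other member of the family, changed by -4.15 ± 0.25, with 57.2 to 117 CPM in glucagon and 4.03 to 6.45 CPM in combination.

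Ppargc1a, which encodes a coactivator of gluconeogenic and mitochondrial genes (chr5:51454250-51567726, - strand), stood at 200.2, 190.1, 166 and 156 CPM in glucagon and 16.9, 15.3, 11.5 and 12.7 CPM in combination. The glucagon livers lay well above all others, while the combination livers lay close to control (8.97 to 13.5 CPM). The change was -3.65 ± 0.20 (edgeR adjusted p = 1.58e-10). Of the 23 tested CREB targets and feedback genes, 15 fell and 2 rose, against 10.2% and 12.4% of all genes, with a median change of -1.89. The falling members were Crem, Dusp1, Fos, Fosb, Irs2, Junb, Nfil3, Nr4a1, Nr4a2, Nr4a3, Pde3b, Pde4b, Pde4d, Per1 and Ppargc1a. Cited2 and Id1 rose, and 1 gene rose on leaving out combination 1.

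**Figure D2:**
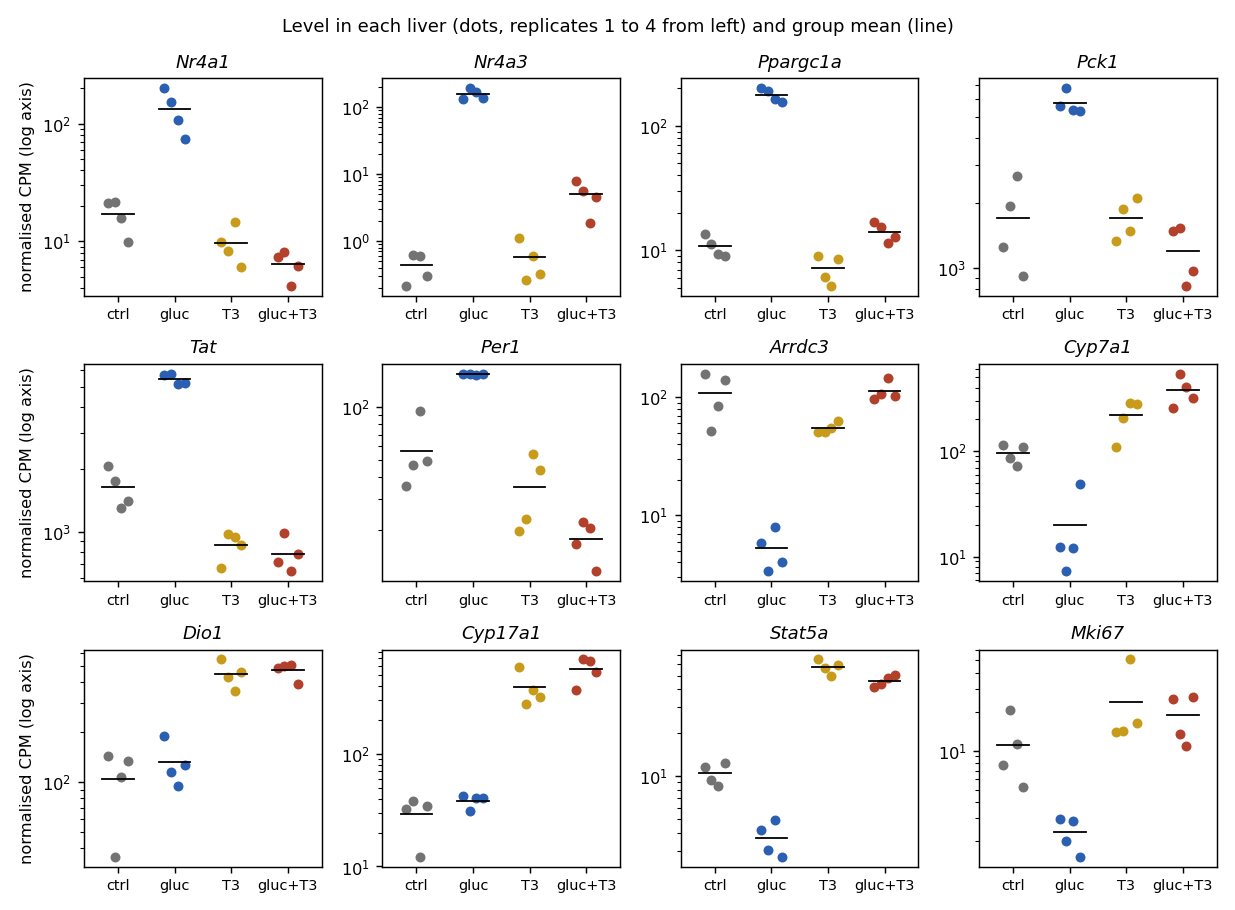
Level of 12 genes in each control, glucagon, T3 and combination liver (normalised CPM on a log axis; dots are replicates 1 to 4 from left, lines the group means). Nr4a1, Nr4a3, Ppargc1a, Pck1, Tat and Per1 stand highest in the 4 glucagon livers, Arrdc3, Cyp7a1, Stat5a and Mki67 stand lowest there, and Dio1 and Cyp17a1 are high in both T3 groups.

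Upstream in the glucagon signalling chain, 7 of 25 tested genes were called, against 22.5% of all genes. Gcgr, the glucagon receptor, stood at 295, 274, 248 and 308 CPM in glucagon and 297, 299, 438 and 289 CPM in combination. Apart from combination 3 the groups lay together, and the change of 0.23 ± 0.22 was not called (edgeR adjusted p = 0.506, or 0.035 with library totals). Among these genes for the receptor, adenylyl cyclases, protein kinase A subunits, phosphodiesterases and related regulators, 3 rose and 4 fell. Those that rose were Rgs16, Pde4a and Pde9a, and those that fell were Adcy1, Adcy5, Adcy9 and Prkar1a. With library totals 7 rose and 2 fell, and in the fit of the 8 libraries alone 7 fell. Rgs16, which encodes a brake on G protein signalling, went from 12.0, 2.46, 2.59 and 3.82 to 47.6, 82.6, 132 and 43.4 CPM, 3.85 ± 0.81. Adcy1, an adenylyl cyclase gene, went from 24.5, 19.1, 11.0 and 12.6 to 8.65, 6.30, 4.85 and 3.90 CPM, -1.5 ± 0.30, and in neither gene did the groups overlap.

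Of 21 tested gluconeogenic genes 7 fell (including Fbp1, G6pc, Gpi1, Pck1, Slc25a25 and Slc2a2), with a median of -0.38. No rise was called by edgeR or DESeq2 (0 each, and 0 at an unadjusted p under 0.05), but 1 was with library totals and 2 in the fit of the 8 libraries alone, with or without lane as a block. Pck1 (phosphoenolpyruvate carboxykinase, chr2:173153048-173159273, + strand) stood at 5601, 6757, 5379 and 5314 CPM in glucagon and 1483, 1532, 828 and 964 CPM in combination. The groups were far apart, and combination overlapped the control range of 916 to 2663 CPM. The change was -2.26 ± 0.29 (edgeR adjusted p = 1.05e-05). G6pc, the glucose-6-phosphatase gene, changed by -1.59 ± 0.23, and Slc25a25, which encodes a mitochondrial ATP-Mg/phosphate carrier, by -2.83 ± 0.29.

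In glycogen and glucose use, the regulatory subunit gene Ppp1r3g, which targets protein phosphatase 1 to glycogen, stood at 747, 566, 306 and 299 CPM in glucagon and 32.8, 32.9, 17.2 and 11.9 CPM in combination. It was low in every combination liver, as in control (13.7 to 44.4 CPM), and changed by -4.33 ± 0.49. Of 30 tested genes of glycolysis and glycogen, 2 rose and 8 fell, including Gys2, Pygl, Gbe1 and Stbd1 (-1.08 ± 0.22). With library totals 6 rose.

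Among genes of amino acid breakdown, Tat (tyrosine aminotransferase) stood at 5679, 5758, 5130.1 and 5226 CPM in glucagon and 716, 986, 646 and 784 CPM in combination. The combination livers lay below all control livers (1308 to 2077 CPM), and the change was -2.80 ± 0.22 (edgeR adjusted p = 4.23e-08). Got1 and Agxt, both aminotransferase genes, changed by -1.10 ± 0.28 and -1.41 ± 0.29, and lay above control. Got1 lay at 1412 to 2278 CPM in combination and 175 to 538 CPM in control, and Agxt at 759 to 1888 and 290.0 to 434 CPM. Of 37 tested members 5 fell and 1 rose (Gldc), beside 10.2% and 12.4% of all genes. With library totals 3 fell and 4 rose, and in the fit of the 8 libraries alone 8 fell and 3 rose.

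Of the 8 urea cycle genes, Nags, whose product makes the activator of the first step, rose by 0.74 ± 0.15 on the log2 scale (84.5 to 116 CPM in glucagon, 134 to 178 CPM in combination). Slc25a13 was called lower (-0.59 ± 0.21, edgeR adjusted p = 0.0472), but the call was lost with library totals, without the filter on low counts and on leaving out any 1 of glucagon 1, 2 and 3 or combination 3 and 4 (adjusted p 0.0716 to 0.146). Asl changed by -0.43 ± 0.18 and was called only in the fit of the 8 libraries alone (adjusted p = 0.0417), in which 3 genes of the cycle fell. Of 16 amino acid transporters, 3 fell (6 in that fit) and 2 rose, beside 10.2% and 12.4% of all genes. Slc38a2, which carries neutral amino acids with sodium, went from 818, 751, 622 and 578 to 95.5, 111, 103 and 89.6 CPM, -2.79 ± 0.20, and combination lay within the control range of 67.8 to 137 CPM. Slc7a2, a carrier of cationic amino acids, changed by -1.52 ± 0.19, and Slc6a12, a betaine carrier, by 1.19 ± 0.21.

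Among genes that handle thyroid hormone, Dio1 encodes a deiodinase and is known to rise with T3 in liver. This gene (chr4:107291465-107307169, - strand) stood at 189, 115, 95.1 and 127 CPM in glucagon and 489, 501, 511 and 390.2 CPM in combination. The lowest combination liver was above the highest glucagon liver, and T3 alone gave 352 to 549 CPM. The change was 1.85 ± 0.31 (edgeR adjusted p = 0.000227). The receptor gene Thrb went from 35, 36.0, 29.4 and 21.3 to 16.0, 12.5, 14.5 and 17.1 CPM, a fall of 1.02 ± 0.19 on the log2 scale with no overlap. Thra was not called (-0.01 ± 0.20), and its exons overlap those of Nr1d1 on the other strand, so without a stated strand setting the reads of these genes cannot be told apart. Serpina7, which encodes thyroxine-binding globulin, changed by -2.59 ± 0.42. Of 21 genes for receptors, deiodinase, carriers and binding proteins 3 rose and 3 fell, beside 12.4% and 10.2% of all genes. With library totals 8 rose, and in the fit of the 8 libraries alone 6 rose and 5 fell.

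Of 28 tested thyroid hormone responsive genes, 9 rose and 3 fell (1 with library totals), with a median change of 0.60. Stat5a, a signal transducer of growth hormone, stood at 4.18, 3.04, 4.89 and 2.72 CPM in glucagon and 41.4, 43.3, 47.9 and 50.2 CPM in combination. Both groups were tight and far apart, and the change of 3.61 ± 0.18 (edgeR adjusted p = 1.13e-10) stood beside one of 0.75 ± 0.17 in Stat5b. Idh3a, a subunit of isocitrate dehydrogenase in the tricarboxylic acid cycle, went from 46.0, 41.2, 56.3 and 41.0 to 164, 168, 164 and 158 CPM, 1.82 ± 0.16. Thrsp (Spot 14), named for its response to thyroid hormone, did not pass the test. It stood at 3444, 1411, 1152 and 1361 CPM in glucagon and 1986, 4091, 3673 and 2161 CPM in combination, and the groups overlapped, with glucagon 1 the highest of its group (0.69 ± 0.56, edgeR adjusted p = 0.419).

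Clock and output genes moved in both directions. Per1, a repressor in the core clock and also a CREB target, stood at 155, 154, 153 and 155 CPM in glucagon and 16.6, 22.3, 20.6 and 11.7 CPM in combination, -3.11 ± 0.34. Per2 went from 425, 519, 346 and 324 to 81.0, 73.2, 106 and 67.5 CPM, -2.30 ± 0.27. Neither gene's groups overlapped. Of 22 tested members, 8 fell (Bhlhe41, Cry1, Cry2, Nfil3, Per1, Per2, Rora and Usp2) and 5 rose (Clock, Dbp, Hlf, Npas2 and Per3). The falling count was 6 to 10 under every alternative tried, while the rising count dropped to 1 on leaving out glucagon 1 or combination 2, to 2 on leaving out glucagon 3 or glucagon 4, and to 3 on leaving out glucagon 2, combination 1 or combination 4. The time of day of collection is not given in the sources used here, and its part in these values was not tested.

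Immediate early genes, which respond to many stimuli, fell more often than they rose. Of 27 tested members 12 fell and 2 rose (Gadd45a and Ier5, and 4 genes in the fit of the 8 libraries alone), with a median of -0.75. Klf4, a zinc finger transcription factor gene, went from 45.1, 53.5, 68.5 and 46.7 to 1.95, 3.83, 2.38 and 1.76 CPM, -4.42 ± 0.36. Maff, a small MAF transcription factor gene, went from 73.2, 63.0, 33.5 and 35.9 to 4.32, 3.11, 1.89 and 3.62 CPM, -3.98 ± 0.37, and Gadd45g changed by -3.03 ± 0.39. In Klf4 and Maff no liver of one group reached the other, as the rule that named them required. Dusp1, Fos, Fosb and Junb are in this list and in that of CREB targets.

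Genes of the unfolded protein response in the endoplasmic reticulum fell, 13 of 28. Herpud1, which takes part in degradation of misfolded proteins, stood at 799, 679, 647 and 573 CPM in glucagon and 256, 221, 198 and 238 CPM in combination. The combination livers lay below every glucagon and control liver (525 to 742 CPM), with a change of -1.56 ± 0.18 (edgeR adjusted p = 4.03e-06). Eif2ak3, the sensor kinase PERK, changed by -1.30 ± 0.22 and the chaperone gene Dnajb9 by -1.44 ± 0.28. The median over the 28 was -0.45, and 7 fell on leaving out glucagon 1. No rise was called by edgeR or DESeq2 (0 each, and 0 at an unadjusted p under 0.05). With library totals 4 fell and 2 rose. Of 21 targets of the transcription factor ATF4, 4 fell and 0 rose (5 had an unadjusted p under 0.05 in edgeR, DESeq2 called 0 higher, 2 rose with library totals and 4 in a fit of the 8 libraries alone). These were Atf4, Chac1 (-2.04 ± 0.31), Ddit4 (-1.94 ± 0.34) and Ppp1r15a (-1.51 ± 0.23).

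**Figure D3:**
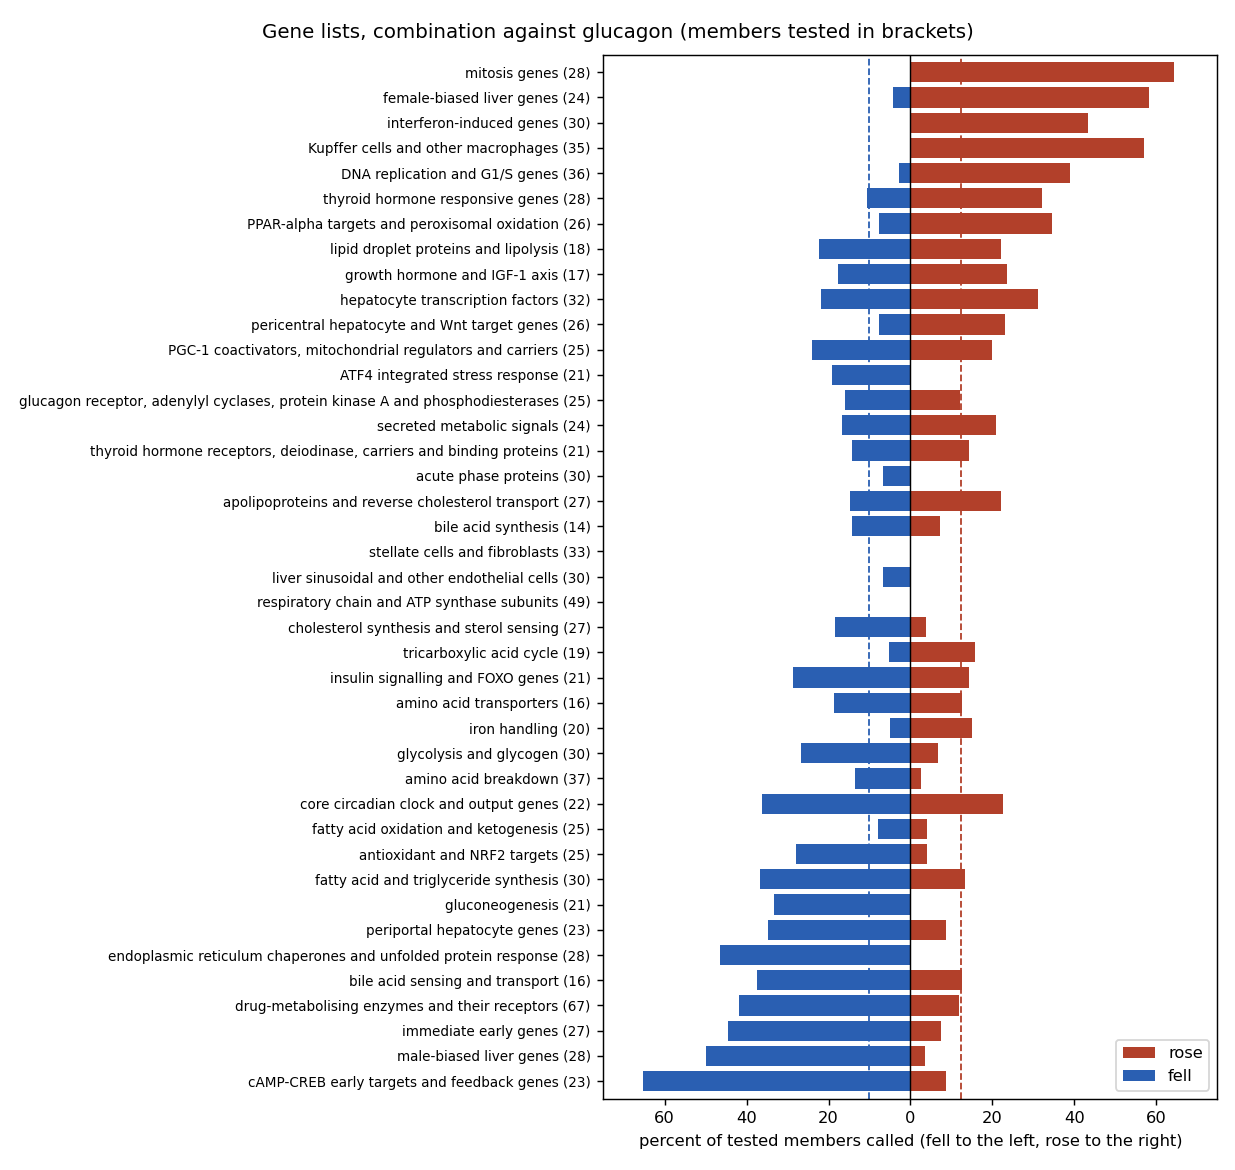
Percent of tested members called higher (right) and lower (left) for the larger gene lists, ordered by median change, with members tested in brackets. Dashed lines mark the share of all tested genes called (12.4% higher, 10.2% lower): CREB targets and male-biased genes reach furthest left, and mitosis and female-biased genes furthest right.

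In bile acid synthesis 1 of 14 genes rose (3 with library totals and 2 in the fit of the 8 libraries alone), beside 12.4% of all genes. Cyp7a1, the rate-limiting enzyme (chr4:6265612-6275633, - strand), stood at 12.3, 7.24, 12.0 and 48.8 CPM in glucagon and 258, 541, 409 and 321 CPM in combination. Glucagon 4 was high in its group but below every combination liver, and control livers held 72.5 to 114 CPM. The change was 4.26 ± 0.49 (edgeR adjusted p = 3.34e-06). Of the others, Scp2 (-1.53 ± 0.24), a sterol carrier with thiolase activity in peroxisomes, and Acox2 fell. The Acox2 call (-0.66 ± 0.21) was lost on leaving out any 1 of glucagon 1, combination 3 or combination 4 (adjusted p 0.0670 to 0.0898) and with library totals.

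Of 16 bile acid sensors and transporters 6 fell and 2 rose, with a median of -0.53. Abcc3, which exports conjugates to blood, went from 110.0, 106, 167 and 126 to 17.8, 17.7, 22.9 and 17.6 CPM, -2.74 ± 0.24, with no overlap. Atp8b1, a lipid flippase of the canalicular membrane, changed by -1.29 ± 0.22, and Abcb4, which moves phosphatidylcholine into bile, by 0.81 ± 0.16. In cholesterol synthesis and sterol sensing 5 of 27 genes fell and 1 rose, beside 10.2% and 12.4% of all genes. Insig1, an SREBP retention factor, went from 134, 106, 92.6 and 84.1 to 41.3, 54.1, 40.1 and 29.7 CPM, -1.33 ± 0.25, with no overlap. Lss, the lanosterol synthase gene, changed by -0.94 ± 0.18. With library totals 3 genes of this list fell and 2 rose, and 2 rose in the fit of the 8 libraries alone. With lane as a block in that fit 10 fell.

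Of 27 apolipoprotein and reverse cholesterol transport genes 6 rose and 4 fell, beside 12.4% and 10.2% of all genes. Abca1, which loads lipid onto apolipoprotein A-I, changed by -0.97 ± 0.19, while Angptl4, an inhibitor of lipoprotein lipase, changed by 1.22 ± 0.24 and the mRNA editing enzyme gene Apobec1 by 1.00 ± 0.20. With library totals 1 of these genes fell, and without combination 1, 2 fell.

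Fatty acid synthesis genes fell more often than they rose, 11 of 30 against 4, with a median of -0.33. Elovl3, a fatty acid elongase that is also male-biased, stood at 406, 253, 248 and 486 CPM in glucagon and 18.9, 14.3, 18.1 and 21.3 CPM in combination. All combination livers were below the lowest control liver (57.7 to 194 CPM), and the change was -4.26 ± 0.38 (edgeR adjusted p = 1.59e-07). Lpin1, a phosphatidate phosphatase and coactivator, went from 1211, 1476, 979 and 1113 to 335, 382, 217 and 176 CPM, -2.11 ± 0.28. Acly, which makes cytosolic acetyl-CoA, went from 1928, 890.1, 958 and 953 to 276, 383, 321 and 229 CPM, -1.97 ± 0.32, and glucagon 1 was high. Fads1, Fads2 and Pnpla3 were among those that rose. With library totals 6 fell.

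Lipid droplet genes were divided, with 4 of 18 higher (Lipe, Plin2, Plin5 and Pnpla2) and 4 lower (Hilpda, Hsd17b11, Hsd17b13 and Plin4). With library totals 9 rose and 2 fell, and without glucagon 1, 2 fell. Plin2, the main droplet coat protein of hepatocytes, went from 229, 109.9, 118 and 112 to 485, 406, 375 and 516 CPM, 1.65 ± 0.24. Plin5, a droplet protein of oxidative tissues, went from 41.0, 41.1, 30.7 and 39.0 to 79.5, 92.4, 83.5 and 62.5 CPM, 1.07 ± 0.16. In both genes every combination liver was above every glucagon liver.

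Of 26 targets of the lipid-sensing receptor PPAR-alpha and peroxisomal genes, 9 rose and 2 fell (1 with library totals and on leaving out glucagon 3, combination 1 or combination 3, and 6 in the fit of the 8 libraries alone), with a median of 0.48. Cyp4a14, a fatty acid omega-hydroxylase, stood at 29.5, 49.5, 197 and 260.5 CPM in glucagon and 1369, 1652, 1022 and 1698 CPM in combination. The glucagon livers were spread widely and lay below all combination livers, and the change was 3.42 ± 0.54 (edgeR adjusted p = 0.000115). Cyp4a31, of the same family, held 1.42 to 4.43 CPM in glucagon and 35.8 to 72.2 CPM in combination, 4.26 ± 0.48. Abcd2, a peroxisomal fatty acid transporter gene, changed by 2.80 ± 0.43. Genes of the Cyp4a, Cyp3a, Cyp2c, Cyp2d, Ugt2b, Mup, Ces and Gst families have near-identical copies, so the reads of single members may be split among them. Of 25 genes of mitochondrial fatty acid oxidation and ketogenesis, Acadm (-0.94 ± 0.16) and Acsl1 (-0.89 ± 0.22) fell. Etfb was called higher (0.52 ± 0.15), a call lost on leaving out any 1 of glucagon 2, 3 and 4 or combination 3 (adjusted p 0.0536 to 0.0857). With library totals 2 genes of this list rose, and in the fit of the 8 libraries alone 7 fell (5 with lane as a block) and 2 rose.

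Of 49 respiratory chain and ATP synthase subunits 0 were called in edgeR, 1 had an unadjusted p under 0.05, and the median change was -0.09. Sdha (-0.38 ± 0.17), Sdhc (-0.28 ± 0.16) and Ndufa4 (-0.26 ± 0.16) had the smallest p of the 49. DESeq2 also called 0, library totals gave 2 higher, and a fit of the 8 libraries alone gave 1 lower, Sdha (adjusted p = 0.0211, or 0.0480 with lane as a block). In the tricarboxylic acid cycle 3 of 19 rose, including Idh3a and Cs (0.79 ± 0.19), and Suclg2 fell. Among all genes 12.4% rose and 10.2% fell. The call of Suclg2 was lost with library totals and on leaving out any 1 of glucagon 1, 3 and 4 or combination 1 and 2, and in the fit of the 8 libraries alone 2 fell. Among 25 PGC-1 coactivators, mitochondrial regulators and carriers 5 rose and 6 fell, beside the same 12.4% and 10.2% of all genes. Slc25a30, a kidney mitochondrial carrier gene, went from 12.1, 12.1, 7.97 and 14.7 to 174, 111, 46.8 and 91.1 CPM, 3.18 ± 0.49, and Ppargc1b rose while Ppargc1a fell. With library totals 12 of these rose, in the fit of the 8 libraries alone 8, and 2 or 3 on leaving out glucagon 1, glucagon 2 or combination 3.

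Female-biased liver genes rose and male-biased ones fell, in livers that were all from males. Of 24 tested female-biased genes 14 rose and Cyp2b10 fell (not on leaving out glucagon 3 or 4 or combination 1, 2 or 4), with a median of 1.73. Cux2, a transcription factor gene with female-biased expression in liver (chr5:121856366-122050102, - strand), stood at 1.19, 0.647, 1.94 and 1.11 CPM in glucagon and 5.09, 48.4, 115 and 12.9 CPM in combination. The groups did not overlap, but the combination livers differed greatly, with replicates 2 and 3 high and 1 and 4 low. The change was 5.21 ± 1.03 (edgeR adjusted p = 0.00102). Cyp3a16, a female-biased cytochrome P450, went from 0.657, 0.905, 1.22 and 0.302 to 24.8, 283, 396 and 70.3 CPM, 7.91 ± 1.16, and Cyp3a44 from 0.418, 0.323, 0.575 and 0.604 to 9.89, 64.9, 120.4 and 18 CPM, 6.80 ± 0.94. The same 2 combination livers, 2 and 3, were the highest in both genes. Cyp17a1, a steroid hydroxylase gene (chr19:46667165-46673172, - strand), went from 42.2, 30.8, 40.2 and 40.7 to 369, 686, 666 and 533 CPM, 3.87 ± 0.36, with combination 1 the lowest.

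Of 28 tested male-biased genes 14 fell and Mup1 rose (not on leaving out glucagon 2, 3 or 4 or combination 1, while 2 rose with library totals), with a median of -1.78. Cyp4a12a stood at 20.7, 22.9, 10.2 and 6.34 CPM in glucagon and at 0.118, 0.0798, 0.0822 and 0 CPM in combination. Each combination library was below the 3 counts taken as the limit, which are 0.178 to 0.278 CPM, so the level was at least 63.8-fold lower (glucagon mean over the mean of that limit). Hsd17b6, which oxidises androgen metabolites, went from 234, 487, 567 and 367 to 4.92, 27.0, 17.8 and 17.2 CPM, -4.63 ± 0.69. Keg1 changed by -2.79 ± 0.33. For each of these 3 genes every combination liver was below every control liver, and T3 alone gave 4.31 to 20.8 CPM of Hsd17b6. The mean of log2 CPM over the male-biased list was 6.57, 6.40, 5.17 and 5.68 in glucagon replicates 1 to 4 and 4.69, 3.55, 3.31 and 4.32 in combination. Combination 2 and 3, the highest in female-biased genes (4.46 and 4.64, against 3.02 and 3.62 in replicates 1 and 4), were the lowest in male-biased genes.

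In the growth hormone and IGF-1 axis, which sets the sex bias of liver, 4 of 17 genes rose and 3 fell. The shares of all genes were 12.4% and 10.2%. Ghr, the growth hormone receptor gene, stood at 1452, 1442, 1465 and 1159.7 CPM in glucagon and 556, 596, 477 and 478 CPM in combination. Combination was below every glucagon and control liver, and the change was -1.39 ± 0.26 (edgeR adjusted p = 0.000575). Stat5a, Stat5b, Prlr and Onecut1 rose, and Ghr, Igfbp1 and Socs3 fell. Socs3, a feedback inhibitor, changed by -1.40 ± 0.35, with glucagon 3 inside the combination range. On leaving out glucagon 1, 2 of the 17 rose.

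Drug-metabolising enzymes and their receptors fell, 28 of 67 against 8 that rose, with a median of -0.65. Ephx1 (epoxide hydrolase) went from 619.6, 689, 833 and 728 to 228, 205, 199 and 284 CPM, -1.65 ± 0.19, and Aox1 (aldehyde oxidase) from 87.4, 79.2, 90.2 and 87.1 to 22.7, 22.5, 31.6 and 25.2 CPM, -1.75 ± 0.21. Neither pair of groups overlapped. Ugt2b37, a glucuronosyltransferase gene, rose from 1.67, 1.88, 2.37 and 3.72 to 58.9, 36.0, 27.0 and 66.1 CPM, 4.31 ± 0.46. With library totals 14 rose. Several members are also in the male-biased or female-biased list. Of 25 antioxidant genes under the factor NRF2, 7 fell and 1 rose. Among those that fell were Gclc (-1.08 ± 0.21) and Gclm (-0.93 ± 0.23), which make the subunits of the enzyme that limits glutathione synthesis. With library totals 4 of these fell and 2 rose, and 2 rose in the fit of the 8 libraries alone. Osgin1, an oxidative stress response gene, rose from 88.1, 57.9, 56.6 and 123 to 1224, 1001, 1175 and 1338 CPM, 3.86 ± 0.45, and no glucagon liver came near the combination range.

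Among 32 hepatocyte transcription factors 10 rose and 7 fell. Klf15, a factor of fasting metabolism, fell from 546, 587, 536 and 642 to 257, 277, 199 and 206 CPM, -1.30 ± 0.20, and Zhx2, a repressor of hepatic genes, from 57.4, 69.5, 66.0 and 66.6 to 36.8, 33.5, 32.5 and 32.8 CPM, -0.94 ± 0.15. The glucagon and combination livers were separate in both genes. With library totals, and on leaving out combination 1, 4 fell. Of 21 genes of insulin signalling and FOXO targets 6 fell and 3 rose, beside 10.2% and 12.4% of all genes. Sgk1, a kinase gene, changed by -2.05 ± 0.24 and Pik3r1, the regulatory subunit of PI3-kinase, by -1.22 ± 0.18. On leaving out combination 3, 1 rose, and with library totals 6 rose.

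Of 24 secreted metabolic signals 5 rose and 4 fell, beside 12.4% and 10.2% of all genes. Fst (follistatin), an activin antagonist, went from 21.7, 26.6, 12.4 and 10.3 to 2.66, 1.99, 2.79 and 2.69 CPM, -2.80 ± 0.37, and Tsku (tsukushi) from 71.9, 67.4, 67.0 and 136 to 249, 279.6, 336 and 215 CPM, 1.66 ± 0.24. Fgf21, a hormone of fasting and PPAR-alpha activation, stood at 15.8, 11.8, 19.4 and 22.0 CPM in glucagon and 30.8, 56.4, 25.7 and 50.6 CPM in combination. Every combination liver was above every glucagon liver, yet the change of 1.24 ± 0.70 was not called in the fit of all libraries (edgeR adjusted p = 0.226). In a fit of the 8 libraries alone it was called (adjusted p = 0.00359, or 0.00753 with lane as a block). Control 2 held 48.8 CPM of Fgf21, against 1.02 to 6.96 CPM in the other controls. With library totals 9 of the 24 rose, and in the fit of the 8 libraries alone 8 fell.

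Of 5 alpha-arrestin genes 2 rose. Arrdc3, which regulates receptor and nutrient signalling (chr13:80883384-80896042, + strand), stood at 5.79, 3.36, 8.05 and 4.03 CPM in glucagon and 97.2, 107, 146 and 103 CPM in combination. The 4 glucagon livers were far below all 12 control, T3 and combination livers, and the change was 4.41 ± 0.33 (edgeR adjusted p = 1.79e-08). Txnip, a glucose-responsive member, changed by 1.19 ± 0.21, and Arrdc1 was not called (-0.28 ± 0.22). Further genes named for the size of their fall were Btbd19, Tas1r2, Cabyr and Mfsd2a. Btbd19, at chr4:117119219-117125725, - strand, went from 134, 174, 161 and 154 to 5.57, 5.58, 6.08 and 6.12 CPM, -4.73 ± 0.25. Tas1r2, a sweet taste receptor subunit gene, went from 45.2, 96.3, 83.8 and 85.8 to 1.36, 1.75, 3.78 and 1.39 CPM, -5.23 ± 0.40. Both were low in control, at 4.12 to 11.3 and 0 to 0.294 CPM. Cabyr changed by -4.13 ± 0.39, and Mfsd2a, a lysophosphatidylcholine carrier gene, by -3.82 ± 0.51.

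Genes that mark the zones of the liver lobule were called in both directions. Of 23 periportal genes 8 fell and 2 rose (4 with library totals), and of 26 pericentral and Wnt target genes 6 rose and 2 fell. Among pericentral genes, Rnf43, a feedback target of Wnt signalling, went from 11.3, 8.28, 11.6 and 12.8 to 44.2, 44.2, 43.7 and 42.4 CPM, 1.99 ± 0.31, and Tbx3 changed by 1.58 ± 0.30. The 4 combination livers agreed closely in Rnf43. The calls of the 2 pericentral genes that fell (Cyp2e1 and Oat) were lost on leaving out any 1 of glucagon 1, 3 and 4 or combination 1, 3 and 4, and in the fit of the 8 libraries alone 10 rose and 6 fell. With library totals 10 rose and 0 fell. Agxt2l1, a periportal lyase gene, went from 386, 507, 457 and 372 to 19.5, 58.9, 28 and 27.4 CPM, -3.69 ± 0.40.

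In iron handling, 3 of 20 genes rose and 1 fell (4 in the fit of the 8 libraries alone), beside 12.4% and 10.2% of all genes. Hfe2 (hemojuvelin), a co-receptor that drives hepcidin, went from 126, 73.6, 123 and 80.6 to 250.4, 282, 306 and 302 CPM, 1.5 ± 0.19. Tfrc, the transferrin receptor gene, changed by -1.53 ± 0.30, and Slc40a1, the iron exporter ferroportin, by 1.5 ± 0.21. Slc40a1 stood at 88.4 to 159 CPM in control and 115 to 161 CPM in combination. The summed level of 5 red blood cell genes, scaled by library totals alone, was 205.5 to 304.9 CPM in glucagon and 93.0 to 163.2 CPM in combination. Its part in the Tfrc change was not tested. Of 9 metallothionein and zinc genes, Slc39a4 was called lower (-2.10 ± 0.62), a call lost on leaving out combination 1 (edgeR adjusted p = 0.0515), and Slc39a5, another zinc carrier gene, was not (1.27 ± 0.58). With library totals 1 of the 9 rose, and in the fit of the 8 libraries alone 3 fell. Mt2 stood at 906, 506, 538 and 745 CPM in glucagon and 139, 208, 198 and 112 CPM in combination without overlap. Its change of -2.04 ± 0.80 was not called (edgeR adjusted p = 0.0731) except in the fit of the 8 libraries alone (8.9e-05, or 0.000695 with lane as a block). Of 30 acute phase genes, C9 and Socs3 fell and 0 rose (4 had an unadjusted p under 0.05 in edgeR, and DESeq2 called 1 higher). With library totals 3 rose and 1 fell, and in the fit of the 8 libraries alone 2 rose (3 with lane as a block) and 5 fell. The call of C9 was lost with library totals (adjusted p = 0.0995) and on leaving out glucagon 1 or 2 or combination 2, 3 or 4 (adjusted p 0.0772 to 0.096). Lcn2, at 5.67, 2.59, 8.76 and 11.0 and 25.8, 19.7, 125 and 38.0 CPM, changed by 2.92 ± 1.09 (edgeR adjusted p = 0.0596), and was called by DESeq2 (0.0283), with library totals (0.0354) and in the fit of the 8 libraries alone (0.00316, or 0.000328 with lane as a block).

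Cell division genes rose. Of 28 tested mitosis genes 18 rose, with a median of 2.04. A fall was called for 0 of the 28 by edgeR and by DESeq2, also at an unadjusted p under 0.05, and DESeq2 called 22 higher. Mki67, the Ki-67 proliferation antigen gene, stood at 2.98, 2.00, 2.87 and 1.51 CPM in glucagon and 25.2, 13.3, 10.8 and 25.7 CPM in combination. Levels were low in all livers, the groups did not overlap, and the change was 2.98 ± 0.50 (edgeR adjusted p = 0.000239). Control livers held 5.20 to 20.4 CPM, and combination was not called against control (0.74 ± 0.45, edgeR adjusted p = 0.256). Bub1b, a spindle checkpoint kinase gene, changed by 2.45 ± 0.34 and Kif23, a motor of cytokinesis, by 2.61 ± 0.42. Against control, combination was called higher in both (1.11 ± 0.31 and 1.18 ± 0.38). The mean of log2 CPM over the list was -0.27, 0.01, -0.18 and -0.41 in glucagon replicates 1 to 4 and 1.91, 0.96, 0.87 and 1.74 in combination. Controls 1, 3 and 4 lay at 0.29 to 0.40, above every glucagon liver and below every combination liver. Control 2 lay at 1.93, above all 4 combination livers. Replicates 1 and 4 of combination, the lower ones in female-biased genes, were the higher ones here.

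Of 36 DNA replication and G1/S genes 14 rose and 1 fell (2 in the fit of the 8 libraries alone), with a median of 0.70. E2f2, an activator of S-phase genes, went from 2.27, 2.65, 2.51 and 2.62 to 12.9, 8.30, 9.04 and 11.0 CPM, 2.04 ± 0.28, and the cell cycle inhibitor gene Cdkn2c changed by 1.91 ± 0.31. Control livers held 3.90 to 9.90 CPM of E2f2. Mcm10, a replication initiation factor gene, was the member that fell, from 62.6, 96.5, 40.5 and 57.9 to 22.1, 13.6, 16.1 and 16.2 CPM, -1.92 ± 0.27, opposite to Mcm2, Mcm5 and Mcm6. The count that rose was 8 without combination 1 and 9 without glucagon 3 or glucagon 4.

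Markers of Kupffer cells, the resident macrophages of liver, were higher in combination than in glucagon. Of 35 tested Kupffer and macrophage genes 20 rose, with a median of 1.08, and 0 fell (edgeR and DESeq2, also at an unadjusted p under 0.05). Their summed level, scaled by library totals alone, was 915.3, 821.8, 981.9 and 950.5 CPM in glucagon replicates 1 to 4 and 2128, 2061, 2019 and 2376 CPM in combination. No glucagon liver came near the combination range. Control livers ranged from 1012 to 2796 CPM and T3 livers from 2682 to 3497 CPM. Clec4f, a Kupffer cell lectin, went from 68.6, 51.5, 44.1 and 64.5 to 149.6, 147, 166 and 174 CPM, 1.48 ± 0.15. Folr2 changed by 1.56 ± 0.19 and Cd5l by 1.51 ± 0.21. In bulk tissue more cells of a type and more RNA per cell cannot be told apart. At most 1 of 36 markers was at 0 in any of the 8 libraries.

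Other cell types had smaller shares of their markers called. Of 33 stellate cell and fibroblast markers 0 were called in edgeR (2 had an unadjusted p under 0.05, DESeq2 called 0, and a fit of the 8 libraries alone called 1 higher and 1 lower), and their summed level was 1282 to 1973 CPM in glucagon and 1273 to 2057 CPM in combination. Of 30 endothelial markers 2 fell, with sums of 1150 to 1294 and 1308 to 1472 CPM. DESeq2 called 4 of these lower, and with library totals 1 fell and 2 rose. Of 17 lymphocyte and granulocyte markers 2 rose and 1 fell, with sums of 22.1 to 69.7 and 44.6 to 61.7 CPM. With library totals 4 rose and 0 fell. On leaving out 1 library, 0 fell without glucagon 1, 2 or 4 or combination 2, 3 or 4, and 1 rose without glucagon 2 or 4 or combination 1, 3 or 4, and with lane as a block. Of 14 tested cholangiocyte markers 2 rose, with sums of 150.3 to 187.8 and 209.9 to 296.9 CPM. Of the 21 hepatocyte markers 4 fell and 1 rose, and their sums overlapped. The count that rose was 0 on leaving out any 1 of glucagon 2, 3 and 4 or combination 2 and 3, and 2 with library totals or in the fit of the 8 libraries alone.

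Genes induced by interferon were higher in combination. Of 30 tested genes 13 rose and 0 fell (edgeR and DESeq2, also at an unadjusted p under 0.05). The median was 1.64, and in 27 of 30 the groups did not overlap, against 17.5% of all genes. The count moved with the libraries in the fit. It was 29 in a fit of the 8 libraries alone, 26 without control 2 and glucagon 3, 6 to 10 on leaving out any 1 glucagon or combination library (6 without glucagon 2), and 20 with library totals. Gbp3, an interferon-induced GTPase gene, went from 2.15, 3.10, 2.30 and 2.92 to 14.2, 32.4, 12.3 and 19.4 CPM, 2.90 ± 0.64. Oas2 went from 6.33, 7.44, 5.17 and 9.46 to 18.3, 30.1, 32.5 and 25.6 CPM, 1.91 ± 0.39, and Parp14 changed by 1.57 ± 0.35. Control 2 held 27.3 CPM of Gbp3, 38.5 CPM of Oas2 and 173 CPM of Parp14. The other control livers held 2.73 to 4.22, 7.17 to 11.9 and 44.6 to 51.8 CPM, below every combination liver. Parp14 lay at 68.3 to 99.7 CPM in combination. With control 2 in the fit, Gbp3, Oas2 and Parp14 were not called in combination against control (edgeR adjusted p = 0.225, 0.246 and 0.821). A fit of that comparison without control 2 was not made. Kupffer markers were also higher in the combination livers, and their part in the changes of interferon-induced genes was not tested.

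**Figure D4:**
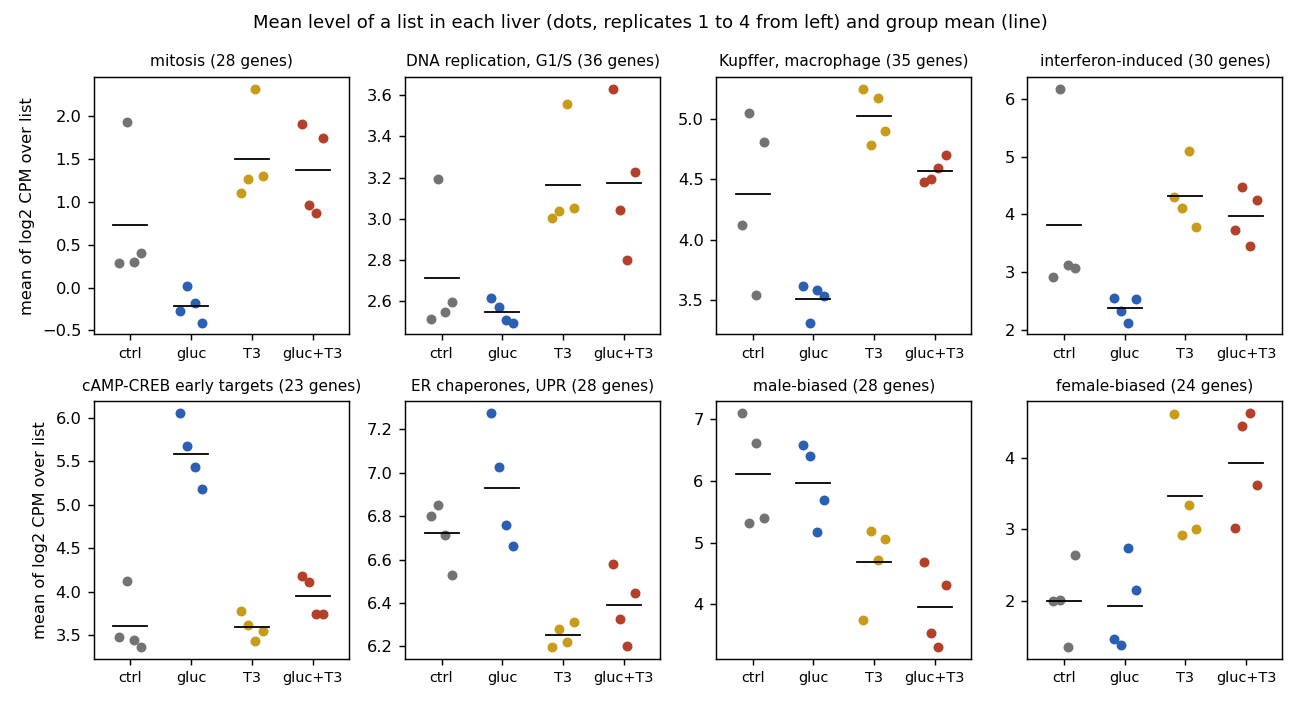
Mean of log2 CPM over the tested members of 8 lists in each control, glucagon, T3 and combination liver (dots are replicates 1 to 4 from left, lines the group means). In all 8 panels the glucagon and combination livers do not overlap; control 2 stands high for mitosis and interferon genes, and combination 2 and 3 stand apart from 1 and 4 in sex-biased genes.

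The change on adding T3 was set against the change T3 gave without glucagon, in control and T3 livers, which share no library with the comparison above. All T3 libraries ran in lane 5, so lane and T3 cannot be told apart on that side. The 2 changes differed for 482 genes, 3.73% of those tested (edgeR, adjusted p under 0.05 for the difference). Of these 206 (1.6%) were higher and 276 (2.14%) lower on the glucagon background, so 42.7% were higher, against 54.5% with library totals. The count was 821 on leaving out control 3 and otherwise 343 to 647 on leaving out 1 library. Of the 1595 genes that rose on glucagon, 177 (11.1%) had a called difference, and of the 1311 that fell, 235 (17.9%). The change on glucagon enters both calls, which raises these shares. T3 alone called 542 of the 1595 in the same direction, 57.4% of the 944 it raised (7.31% of genes tested), and 471 of the 1311, 34.3% of the 1373 it lowered (10.6%).

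Of the 23 CREB targets, 9 had a lower change with T3 on glucagon than on control (Dusp1, Nfil3, Nr4a1, Nr4a2, Nr4a3, Pde4d, Per1, Ppargc1a and Sik1) and Cited2 the other way. Ppargc1a changed by -0.58 ± 0.19 with T3 on control and by -3.65 ± 0.20 on glucagon, a difference of -3.07 ± 0.27 (edgeR adjusted p = 1.49e-06). Nr4a3 stood at 0.214, 0.628, 0.588 and 0.302 CPM in control and 1.10, 0.262, 0.590 and 0.320 CPM in T3, where it was almost absent, and its difference was -5.41 ± 0.75 (edgeR adjusted p = 0.000172). Pck1 stood at 1253, 1941, 2663 and 916 CPM in control and 1330.2, 1869, 1478 and 2095 CPM in T3. These ranges overlap, the T3 change without glucagon was near 0 (edgeR adjusted p = 1), and the difference was -2.26 ± 0.39 (edgeR adjusted p = 0.00153). Of 22 clock genes 6 had a lower change on glucagon (Cry1, Cry2, Nfil3, Per1, Per2 and Usp2), of 27 immediate early genes 5, and of 21 ATF4 targets 4.

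Genes with a higher change on glucagon included Arrdc3, at 158, 52.2, 84.9 and 140.4 CPM in control and 50.4, 50.7, 55.4 and 62.6 CPM in T3. T3 gave -0.99 ± 0.29 there, opposite to 4.41 ± 0.33 on glucagon, and the difference was 5.4 ± 0.44 (edgeR adjusted p = 5.04e-07). Rgs16 likewise moved in opposite directions, -1.58 ± 0.73 and 3.85 ± 0.81, although the first was not called (edgeR adjusted p = 0.135) and control 4 was high at 359 CPM. The Cyp7a1 difference was 3.06 ± 0.62 (edgeR adjusted p = 0.00619), with 109, 208, 286 and 278 CPM in T3. Stat5a, Hfe2, Rnf43 and E2f2 also had a higher change on glucagon, by 1.14 ± 0.23, 1.31 ± 0.27, 1.87 ± 0.42 and 1.96 ± 0.39. Stat5a rose on both backgrounds.

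For other genes that T3 changed, no difference was called. Cyp17a1 changed by 3.72 ± 0.36 on control and 3.87 ± 0.36 on glucagon, a difference of 0.15 ± 0.45. Dio1 differed by -0.26 ± 0.43, Hsd17b6 by -0.16 ± 0.87, Abcc3 by -0.02 ± 0.32 and Clec4f by 0.07 ± 0.21. A difference was called for 1 of 28 male-biased genes (Elovl3), for 0 of 24 female-biased genes (5 at an unadjusted p under 0.05 in edgeR, 1 by DESeq2) and for 0 of 28 unfolded protein response genes (1 at an unadjusted p under 0.05 in edgeR, 1 by DESeq2). With T3 alone 10 of the 24 female-biased genes rose, 12 of the 28 male-biased genes fell and 16 of the 28 unfolded protein response genes fell. For the 28 mitosis genes 1 rose with T3 alone and 1 difference was called (Bub1b), with lane as a block ending that call (edgeR adjusted p = 0.0617). For the 30 interferon-induced genes 1 rose and 0 differences were called (16 at an unadjusted p under 0.05 in edgeR, 2 by DESeq2). A missed threshold does not show that the changes are equal, and the wide spread of the controls limits these tests. The calls of Bub1b, Ddit4, Got1, Mt2, Slc40a1, Socs3, Tas1r2 and Txnip were each lost on leaving out at least 1 of the 16 libraries, with adjusted p of 0.0509 to 0.121.

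**Figure D5:**
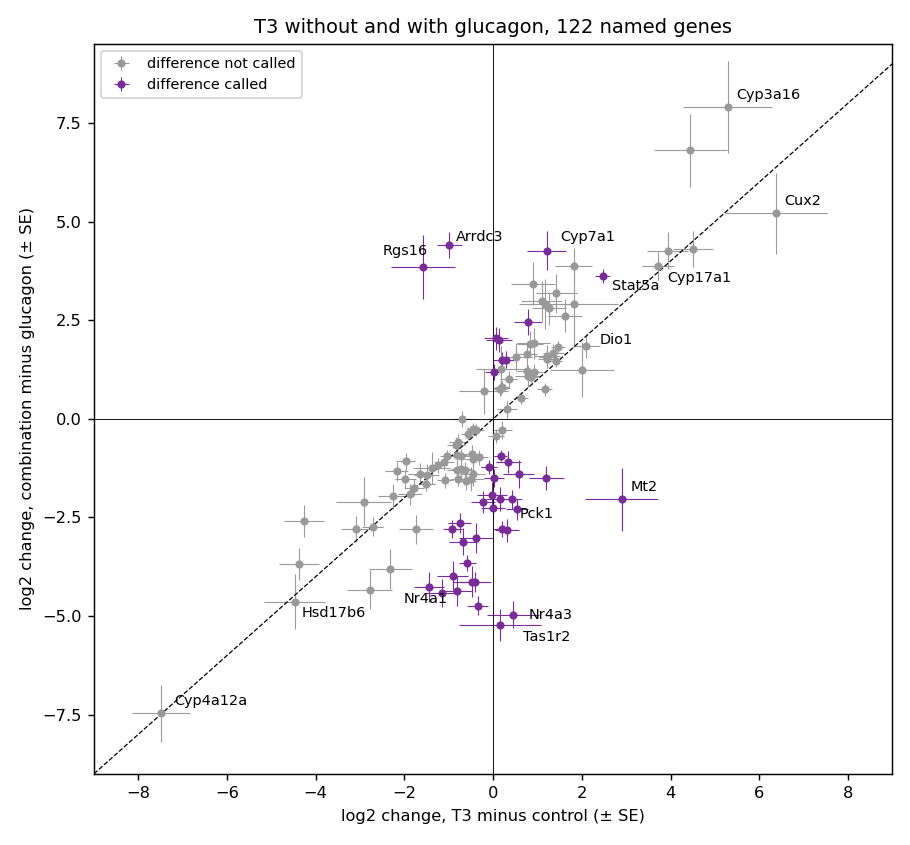
Change with T3 on control (horizontal axis) and on glucagon (vertical axis) for 122 of the genes named by the rule, log2 ± SE, with called differences in purple and a dashed line of equal change. Nr4a3, Tas1r2 and Nr4a1 lie near 0 or a small fall on control and far below on glucagon, Arrdc3 and Rgs16 lie opposite, and Cyp17a1, Hsd17b6 and Cyp4a12a lie near the line. Nr4a3 and Tas1r2 were almost absent in control and T3 livers.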

How the data were processed

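Liver RNA-seq libraries of 20 mice were deposited as 1 count per gene symbol. Per the labels' protocols, a Qiagen kit was used for RNA and Lexogen reagents for strand synthesis. Per the submitters' processing notes, the authors counted reads with HTSeq on mm10. The aligner, the gene annotation and the strand setting were not given in the sources used here. The members of the comparison and the gene lists were chosen with earlier results of these data known. Genes passing edgeR's filter (at least 10 counts, 15 in total) were kept, which dropped 412. Counts were scaled by trimmed means (TMM) and fitted with edgeR 4.0.16 (R 4.3.3, limma 3.58.1), quasi-likelihood, with 5 group means over all 20 libraries. An adjusted p is Benjamini-Hochberg over 12907 genes, and a gene was called under 0.05. CPM are counts scaled to a common size with these factors, except sums over cell markers, which use library totals alone. An SE is the log2 change over the square root of F, and so approximate. T3 libraries held 6091917 to 7996156 counts, the depth that limits low genes most. No symbol had a highest count below 20, so the deposited table holds no rarely counted genes, and 12 symbols had been turned into dates. The script was tested on simulated counts.

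Genes were named by a rule: a panel (Gcgr, Thra, Thrb, Dio1, Thrsp, Ppargc1a, Pck1, G6pc, Cyp7a1, Fgf21, Tat and Nr4a1), the 12 highest and 12 lowest called changes among genes of at least 20 CPM without overlap between the groups, and the 3 members of smallest p in each list. This gave 126 genes, of which 4 are not reported here. Other names stand where the called members of a list are counted out, and members picked from such counts as examples were picked after their values were seen. Positions are from GENCODE M21 (GRCm38, the build of mm10). Per the labels, the replicate number is the sequencing lane except for the T3 libraries, all of lane 5. Lane as a block was therefore fitted as an alternative, which cannot separate lane from T3 in the difference of T3 changes. Deviations from the group means of livers of the same lane correlated with r of 0.320, 0.077, -0.057 and -0.115. Alternatives were other size factors, library totals, no filter, DESeq2 1.42.0, the compared groups alone, a lane block, and leaving out each library in turn. Leaving out control 2, glucagon 3 and combination 4 together, or glucagon 3 from the compared groups alone, was added after seeing the data.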

Additional observations from a re-analysis of the deposited data

Results flagged for a closer look

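In 12 of the 244 groups of 4 livers examined (122 named genes, 2 groups), 4.92%, the highest or lowest liver stood further from its neighbour than Dixon's limit allows. Chance gives about 1 in 20. Glucagon 1 was high in Acly (1928 CPM), Plin2 (229 CPM), Rgs16 (12.0 CPM) and Thrsp (3444 CPM) and low in Pde4a (8.71 CPM). Glucagon 4 was high in Cyp7a1 (48.8 CPM) and Tsku (136 CPM) and low in Ghr (1159.7 CPM). Combination 3 was high in Abcc3 (22.9 CPM), Gcgr (438 CPM) and Tas1r2 (3.78 CPM), and combination 2 was low in Fst (1.99 CPM).

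For 39 of these named genes the change with T3 on the glucagon background differed from the change with T3 on control (edgeR's quasi-likelihood test of the difference, adjusted p under 0.05). Over all genes tested the difference was called for 482 of 12907, 3.73%. Apart from the panel, the named genes were picked by their change on glucagon. That change is part of the difference, so the pick raises the number called. Values are log2 differences between the changes. The change was lower on glucagon for Nr4a3 (-5.41), Tas1r2 (-5.39), Mt2 (-4.93), Btbd19 (-4.38), Nr4a2 (-3.74), Cabyr (-3.65), Nr4a1 (-3.55), Klf4 (-3.26), Slc25a25 (-3.14), Ppargc1a (-3.07), Maff (-3.06), Slc38a2 (-2.99), Per2 (-2.83) and Elovl3 (-2.81). It was also lower, by less, for Adcy1 (-2.69), Gadd45g (-2.64), Sgk1 (-2.46), Per1 (-2.43), Pck1 (-2.26), Chac1 (-2.18), Socs3 (-1.97), Ddit4 (-1.91), Nfil3 (-1.89), Lpin1 (-1.87), Tat (-1.87), Ppp1r15a (-1.53), Got1 (-1.44), Pik3r1 (-1.12) and Zhx2 (-1.10). The change was higher on glucagon for Rgs16 (5.43), Arrdc3 (5.4), Cyp7a1 (3.06), E2f2 (1.96), Rnf43 (1.87), Bub1b (1.66), Hfe2 (1.31), Slc40a1 (1.21), Txnip (1.17) and Stat5a (1.14). Lane 5 held every T3 library, and lane and T3 cannot be told apart there. Tas1r2 held 0 to 0.294 CPM in control and 0.123 to 0.262 CPM in T3. That is near or below 3 counts, which are 0.145 to 0.294 CPM in control and 0.354 to 0.479 CPM in T3. Nr4a3 was also low there (0.214 to 0.628 and 0.262 to 1.10 CPM). A fall with T3 on control could hardly be measured in either gene.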

How the results depend on the processing

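The number of genes called on adding T3 to glucagon (2906) ranged from 2276 to 4177 under the other alternatives and between 2264 and 2470 on leaving out 1 library. Lane as a replicate block gave 3035 (4001 with the compared groups alone), and the compared groups alone gave 4177. The difference of the T3 changes (482 genes) was called for 343 to 821 on leaving out 1 library, with 821 without control 3, for 527 with the replicate block, and for 370 to 683 otherwise. The block ended the difference call of Bub1b (edgeR adjusted p = 0.0617) and no other among the named genes. The T3 libraries share no lane with the other groups, so the block cannot take lane out of the T3 change on control. Its results for the difference therefore do not test for a lane effect on that side. Over the 126 named genes, 2216 of 2268 refitted changes kept direction and call, 26 lost the call, 16 gained it and 10 changed sign. None of the 10 was of a called gene. With library totals these were Arrdc1 (0.034), Ndufa4 (0.051), Sdhc (0.016) and Thra (0.30). Thra was also 0.012 with the block and compared groups alone, -0.18 without glucagon 1 and up to 0.17 without glucagon 3, 0.17 without control 2 and glucagon 3, 0.10 without combination 3 or without control 2, glucagon 3 and combination 4, and 0.18 with the compared groups alone less glucagon 3. The cause of these was not tested. Of 960 refitted differences for 40 genes, 896 kept their call and 64 lost it. The T3 libraries, which enter the difference, had the lowest depth (6091917 to 7996156 counts).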
